A study of Mus musculus with 8 samples.

Results

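The Zic and Tcf/Lef genes encode sequence-specific transcription factors of the early embryo, and their mRNA levels were examined in mouse embryonic stem cells (ESCs) depleted of Kdm2b. The members were the 4 Zic genes Zic1, Zic2, Zic4 and Zic5 and the 4 Tcf/Lef genes Lef1, Tcf7, Tcf7l1 and Tcf7l2, taken by name and read only from probe sets that name the gene alone. Of these 8 genes, 7 were read in this way, by 9 probe sets, among 19938 genes so read on the array. Tcf7 was not analysed here. Zic4 and Zic5 were each read by 2 probe sets, which are numbered below by their p-value, the lower first.

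The cells were E14 mouse ESCs, a feeder-independent line grown with leukemia inhibitory factor (LIF). In the shKdm2b group (4 arrays, passages 27 to 30) the cells stably carried a lentiviral short hairpin RNA (shRNA) against Kdm2b, and in the shScrambled group (4 arrays, passages 28 to 31) a scrambled shRNA. Each group carries 1 shRNA sequence in a puromycin-selected line, so that p-values measure the spread between these samples, and other shRNAs or lines were not part of it. Total RNA of each sample was hybridized to its own array (Affymetrix Mouse Gene ST), and values are log2 signals after RMA, a procedure that corrects background, equalizes the arrays and summarises the probes. Since the level of a probe set also depends on its probes, members are compared by their changes and not by their levels. The shRNA sequences are shown because they are the only designed difference between the groups, and each has 21 bases:
shKdm2b: cgctgtggaaatatctgtcat
shScrambled: cctaaggttaagtcgccctcg

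Zic proteins are zinc finger factors related to the Gli factors of Hedgehog signalling. They act in neural plate, neural crest and axis formation, and Zic2 is also transcribed in pluripotent cells. Tcf/Lef proteins bind DNA through a high mobility group box and are the nuclear partners of beta-catenin in canonical Wnt signalling. Without beta-catenin they recruit Groucho/TLE repressors. In mouse ESCs, Tcf7l1 restrains genes of the naive pluripotent state, whereas Lef1 and Tcf7 act mainly as activators. KDM2B binds non-methylated CpG dinucleotides in CpG islands and brings in a variant polycomb repressive complex, PRC1, so that the arrays ask which of these developmental genes changed on depletion of KDM2B.

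The knockdown was present in every sample. Kdm2b had log2 signals of 8.68, 9.12, 9.45 and 8.91 in shKdm2b replicates 1 to 4, against 10.74, 11.10, 11.34 and 11.20 in shScrambled replicates 1 to 4, and its signal dropped by 75.9%. Of 11 markers of ESCs, such as Nanog and Sox2, all were measured and their mean log2 signal was 13.16 to 13.18 on the shKdm2b arrays and 12.97 to 13.06 on the shScrambled arrays. The medians of the arrays ran between 8.47 and 8.53.

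By the rule of the study's methods for a changed gene, 0 of 7 members were called lower and 0 higher. That rule asks for an adjusted p under 0.05 in a majority of the gene's own probe sets and at least 1.5-fold at the most significant one (limma with Benjamini-Hochberg adjustment over all probe sets). The groups overlapped for all 7 members, whereas they did not overlap, with the knockdown lower, for 9.18% of all genes and, with it higher, for 11.8%. At an unadjusted p under 0.05, 2 members were lower and 0 higher. Over all genes, 1.43% were called lower and 1.42% higher by this rule, and 13.6% were lower and 16.8% higher at an unadjusted p under 0.05. When same-numbered arrays were compared with each other, by the replicate number as a block in the same model, 3 of 7 members were called lower (Zic2, Zic5 and Lef1) and 0 higher, against 1.68% of all genes lower and 1.59% higher. With both arrays of a replicate number left out, the blocked count of lower members was 1 without replicate 1, 2 without replicate 3 and 0 without replicate 2 or 4. The median log2 fold change was -0.17 over the 7 members and 0.046 over all genes.

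Zic2, whose human counterpart is mutated in holoprosencephaly, had the lowest log2 fold change of the members. Its log2 signal was 10.54, 11.81, 12.26 and 11.54 in shKdm2b replicates 1 to 4, against 12.07, 12.46, 12.82 and 12.43 in shScrambled replicates 1 to 4. Thus 3 of 4 knockdown arrays lay below every control array and replicate 3 overlapped the controls. Zic2 averaged 11.54 ± 0.73 in shKdm2b cells and 12.45 ± 0.31 in shScrambled cells (SD, n = 4 each). The log2 fold change was -0.91 (standard error SE = 0.33, 95% confidence interval CI -1.67 to -0.15, limma adjusted p = 0.130). Within the same-numbered pairs the difference was -1.54, -0.64, -0.56 and -0.90, lower in 4 of 4 pairs. With the replicate block Zic2 fell 1.88-fold (on the log2 scale SE 0.17, 95% CI -1.33 to -0.49, limma adjusted p = 0.0286). The estimate leans on shKdm2b replicate 1, the lowest array, without which the log2 fold change was -0.58 (limma adjusted p = 0.159). Without shKdm2b replicate 3 it was -1.15 and passed (limma adjusted p = 0.0432).

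Zic5, a Zic gene that acts in neural crest and neural tube formation, is the coding neighbour of Zic2 on chromosome 14, and its signals ran close to those of Zic2 from array to array. Its first probe set had log2 signals of 11.04, 11.95, 12.29 and 11.45 in shKdm2b replicates 1 to 4, against 12.09, 12.34, 12.72 and 12.39 in shScrambled replicates 1 to 4. As for Zic2, knockdown replicate 3 alone reached into the range of the controls. The log2 fold change was -0.71 (SE 0.26, limma adjusted p = 0.126) without the block. With the block the first probe set fell 1.64-fold (SE 0.13 on the log2 scale, limma adjusted p = 0.0294). Without shKdm2b replicate 3 this probe set had a log2 fold change of -0.91 and passed (limma adjusted p = 0.0340), while the second did not, and the gene was not called. The second probe set fell 1.21-fold, so that the 1.5-fold part of the blocked Zic5 call rests on the first alone. Both probe sets of Zic5, like both of Zic4, were named by annotation, and where their probes map was not checked.

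The second Zic5 probe set gave a smaller log2 fold change in the same direction. Its log2 signal was 9.58, 9.94, 10.16 and 9.75 in shKdm2b replicates 1 to 4, and 9.98, 10.22, 10.30 and 10.02 in shScrambled replicates 1 to 4, lower in 4 of 4 same-numbered pairs. The log2 fold change was -0.27 (limma adjusted p = 0.227, and adjusted p = 0.0431 with the replicate block). On each array the first probe set exceeded the second by 1.46 to 2.13 on the log2 scale in shKdm2b cells and by 2.12 to 2.42 in shScrambled cells, so that the 2 probe sets of 1 gene disagreed by 0.44 in log2 fold change (exact permutation test over the 8 arrays, two-sided, p = 0.0571, where the smallest possible is 0.0286).

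**Figure D1:**
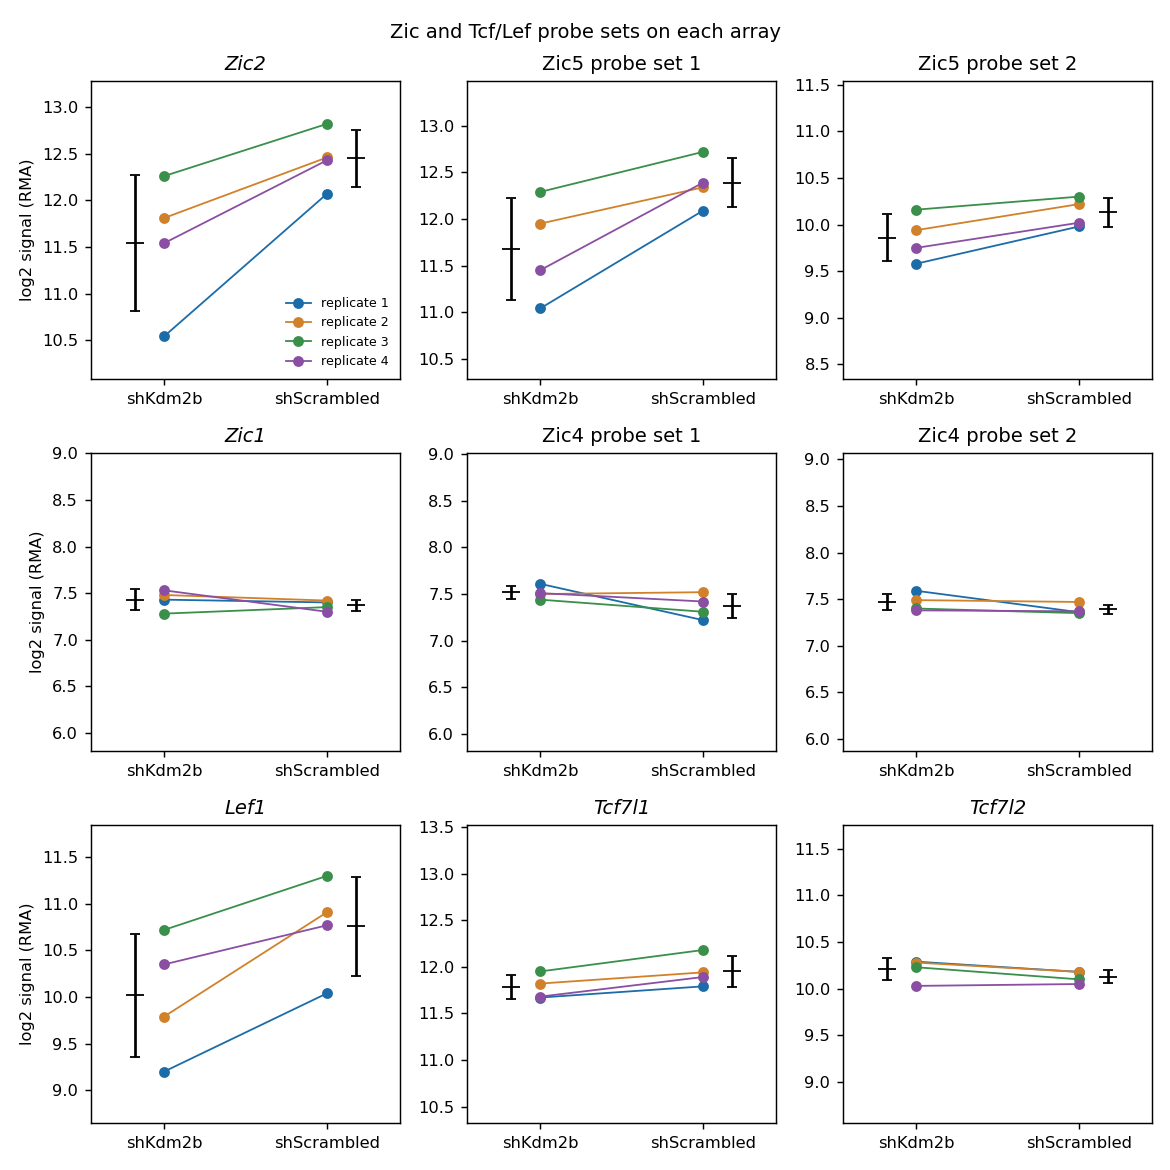
Log2 signal (RMA, vertical axis, 3.2 units in every panel) of the 9 Zic and Tcf/Lef probe sets on the shKdm2b (left) and shScrambled (right) arrays. Points are arrays, lines join arrays of the same replicate number, and black bars give means with SDs (n = 4 each). All 4 lines climb to the control side for Zic2, both Zic5 probe sets, Lef1 and Tcf7l1, by 0.11 to 0.24 for Tcf7l1, while the second Zic4 probe set descends in all 4 pairs and the lines of Zic1, Tcf7l2 and the first Zic4 probe set run both ways.

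Zic1 and Zic4, which are coding neighbours on chromosome 9 and act together in cerebellar development, showed no such difference. Zic1 had log2 signals of 7.43, 7.48, 7.28 and 7.53 in shKdm2b replicates 1 to 4, against 7.40, 7.42, 7.35 and 7.30 in shScrambled replicates 1 to 4. The log2 fold change was 0.06 (SE 0.07, 95% CI -0.09 to 0.21, limma adjusted p = 0.609), and it was 0.06 with the block as well (limma adjusted p = 0.584). The groups overlapped, and 3 of 4 same-numbered pairs were higher in the knockdown.

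The first Zic4 probe set read 7.61, 7.50, 7.44 and 7.51 in shKdm2b replicates 1 to 4, against 7.22, 7.52, 7.31 and 7.42 in shScrambled replicates 1 to 4. Its log2 fold change was 0.15 (SE 0.08, limma adjusted p = 0.253), and that of the second probe set, which lay between 7.38 and 7.59 in shKdm2b cells and between 7.35 and 7.47 in shScrambled cells, was 0.08 (SE 0.06, limma adjusted p = 0.454). The second probe set was higher in 4 of 4 same-numbered pairs, by 0.01 to 0.23, and the first in 3 of 4. All 3 probe sets of Zic1 and Zic4 lay below the median of each of the 8 arrays, while the other 6 lay above it. At such signals a difference between low transcript levels may not be detectable.

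Lef1 had the lowest log2 fold change of the 3 measured Tcf/Lef genes. Its log2 signal was 9.20, 9.79, 10.72 and 10.35 in shKdm2b replicates 1 to 4, against 10.04, 10.91, 11.30 and 10.77 in shScrambled replicates 1 to 4. Thus 2 of 4 knockdown arrays lay below all controls, and the spread within each group (10.02 ± 0.66 in shKdm2b cells and 10.76 ± 0.53 in shScrambled cells, SD, n = 4 each) was close to the difference itself. The log2 fold change was -0.74 (SE 0.36, 95% CI -1.55 to 0.07, limma adjusted p = 0.231). The same-numbered differences were -0.83, -1.12, -0.59 and -0.42. With the replicate block Lef1 fell by 0.74 on the log2 scale, a 1.67-fold lower signal (SE 0.12, 95% CI -1.04 to -0.44, limma adjusted p = 0.0215). Without shKdm2b replicate 1 and without the block, its log2 fold change was -0.47 (limma adjusted p = 0.439).

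Tcf7l1, the Tcf factor best known from ESCs, had a smaller log2 fold change than Lef1. It read 11.67, 11.82, 11.95 and 11.68 in shKdm2b replicates 1 to 4, against 11.79, 11.94, 12.18 and 11.89 in shScrambled replicates 1 to 4. The differences within pairs lay between -0.24 and -0.11, lower in 4 of 4 pairs and with an SD of 0.06. The log2 fold change of -0.17 passed neither without the block (SE 0.10, limma adjusted p = 0.311) nor with it (SE 0.05, limma adjusted p = 0.0913). For Tcf7l2, a Tcf factor of the intestinal epithelium and other tissues, the log2 signal was 10.29, 10.28, 10.23 and 10.03 in shKdm2b replicates 1 to 4, and 10.18, 10.18, 10.10 and 10.05 in shScrambled replicates 1 to 4. Its log2 fold change was 0.08 (SE 0.07, 95% CI -0.08 to 0.24, limma adjusted p = 0.519), with 3 of 4 pairs higher.

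**Figure D2:**
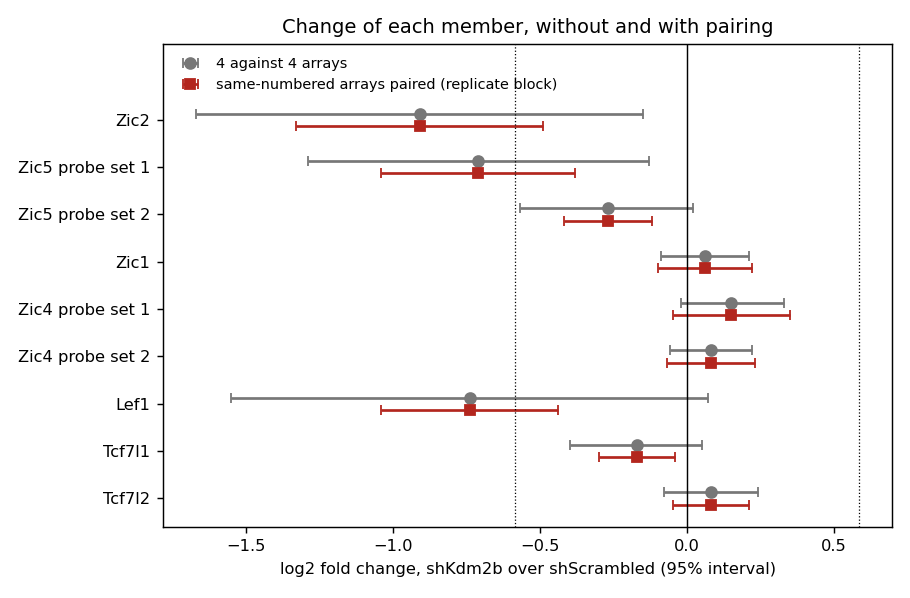
Log2 fold change (shKdm2b over shScrambled) of each probe set with its 95% confidence interval, from 4 against 4 arrays (grey circles) and with same-numbered arrays paired by a replicate block (red squares). Dotted lines mark 1.5-fold. The estimates are the same in both fits. The intervals of the second Zic5 probe set, Lef1 and Tcf7l1 include 0 without the block and lie below 0 with it. These intervals are not adjusted for the number of probe sets, and Tcf7l1 did not pass with the block (limma adjusted p = 0.0913). Those of Zic1, Zic4 and Tcf7l2 include 0 in both.

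Members were then compared with each other in pairs, by the difference of their log2 values on the same array. In this way 4 comparisons were made, the Zic5 probe sets included, with exact permutation tests over the 8 arrays and adjusted p from Benjamini-Hochberg over the 4. Zic4 and Zic5 entered their pairs by the first probe set only. The second Zic5 probe set, with a log2 fold change of -0.27 against -0.91 for Zic2, was not tested against Zic2. Zic5 minus Zic2 averaged 0.14 ± 0.26 in shKdm2b cells and -0.06 ± 0.06 in shScrambled cells (SD, n = 4 each; exact p = 0.114, adjusted p = 0.152). Tcf7l1 minus Tcf7l2 averaged 1.57 ± 0.14 in shKdm2b cells and 1.82 ± 0.20 in shScrambled cells (SD, n = 4 each; exact p = 0.0857, adjusted p = 0.152). Zic1 minus Zic4 averaged -0.09 ± 0.10 in shKdm2b cells and 0.00 ± 0.14 in shScrambled cells (SD, n = 4 each; exact p = 0.371, adjusted p = 0.371). None of these pairs passed, nor did the Zic5 probe sets (adjusted p = 0.152). With 4 arrays per group, a single fully separated pair among 4 comparisons could not reach an adjusted p under 0.05. Equal changes within the pairs are therefore not shown either. Zic5 minus Zic2 reached exact p = 0.0286 without shKdm2b replicate 4 alone.

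The members that were lower in all 4 pairs also varied together between replicates. Zic2, Zic5, Lef1 and Tcf7l1 had replicate 1 lowest and replicate 3 highest in both groups, as did Kdm2b itself, a pattern met by 4 of 7 members and 3.20% of all genes. This order was read from the values of these members, so that the counts describe it and do not test it. All 4 same-numbered differences were below 0 for these 4 of 7 members, against 18.9% of all genes. The replicate number accounted for 84.4% of the within-group variance of Zic2, 84.3% of that of the first Zic5 probe set, 93.5% of that of Lef1 and 95.6% of that of Tcf7l1, and for 63.4% in the median gene. Chance alone gives a sizeable share of this kind, also where same-numbered arrays are unrelated. Shares below that of the median gene are therefore not read as a replicate effect. The share was also high for Tcf7l2 (88.7%), which was not lower, and it was 47.5% for Zic1 and 32.0% and 55.5% for the first and second Zic4 probe sets. Within each group the passage number rises with the replicate number, and each knockdown array has a lower passage than its same-numbered control (27 to 30 against 28 to 31). Over all probe sets, deviations from the group means correlated at -0.0977 to -0.0454 between knockdown and control arrays of the same passage. Between same-numbered arrays they correlated at 0.118 to 0.355. What lies behind the shared pattern was not tested.

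Over the 8 arrays, the deviations of Zic2 from its group means had a Pearson r of 0.963 with those of the first Zic5 probe set, 0.860 with those of Lef1 and 0.768 with those of Tcf7l1, but -0.396 with those of Zic1. These arrays share the replicate numbers, and the coefficients are given as a description. Of all 19937 other genes, those with the most similar log2 profile to Zic2 over the 8 arrays were Zfp345, Chaf1a and Usp38 (r = 0.998, 0.993 and 0.989), with Zic5 at rank 24 (r = 0.981). The genes most like Zic5 were Daxx, Zfp930 and Ctbp2 (r = 0.992, 0.988 and 0.987), and those most like Lef1 were Taf9, Mrgbp and Nudt19 (r = 0.982, 0.980 and 0.979). Such profiles hold the difference between the groups as well as the replicates, and Kdm2b itself stood at rank 1552 for Zic2 (r = 0.825).

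**Figure D3:**
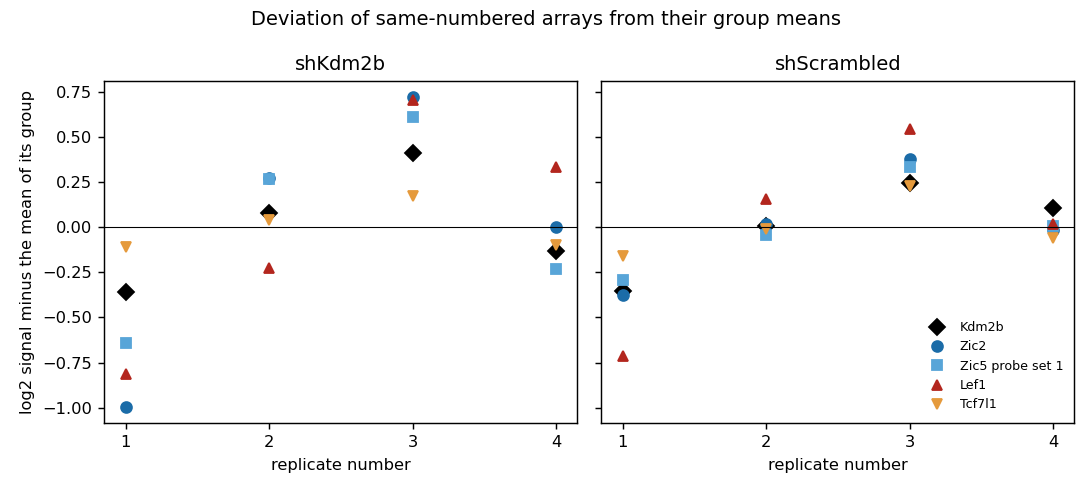
Log2 signal of Kdm2b, Zic2, Zic5 (first probe set), Lef1 and Tcf7l1 minus the mean of the gene in its own group, by replicate number, on the shKdm2b (left) and shScrambled (right) arrays. Each point is 1 array. In both groups all 5 genes are lowest in replicate 1 and highest in replicate 3.

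Because KDM2B recognizes CpG dinucleotides, the promoters of the members were examined for them in windows of 250 bases before to 50 bases after each RefSeq start (GRCm38.p6). The table held 12 windows of 7 member genes, and Zic2 was not among them. All 32851 windows of the table had a median of 7 CpGs, and the quartiles were 3 and 20. Zic5, which was lower with the block, had 15 CpGs in its window and Zic1, which was not, had 31, while Zic4 had 8. Lef1 had 18 and 21 CpGs at its overlapping upstream starts and 8 and 5 at 2 starts further downstream. Tcf7l1 had 34, Tcf7l2 had 34 at its upstream and 7 at its downstream start, and Tcf7, whose mRNA was not analysed here, had 17 and 45. Whether the number of CpGs goes with the change of a member was not tested.

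The 250 bases before the start are shown for Zic5 and Lef1, which were called lower with the block, and for Zic1, which was not, with each CpG in capitals. The Zic5 stretch lies at chr14:122465659-122465908 on the minus strand, that of Lef1 at chr3:131110047-131110296 on the plus strand and that of Zic1 at chr9:91365769-91366018 on the minus strand. They hold 11, 11 and 27 CpGs:
Zic5: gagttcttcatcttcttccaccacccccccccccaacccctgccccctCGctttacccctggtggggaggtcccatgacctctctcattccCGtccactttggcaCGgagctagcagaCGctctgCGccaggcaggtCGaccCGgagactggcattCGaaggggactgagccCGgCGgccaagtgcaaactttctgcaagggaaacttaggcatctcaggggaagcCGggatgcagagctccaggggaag
Lef1: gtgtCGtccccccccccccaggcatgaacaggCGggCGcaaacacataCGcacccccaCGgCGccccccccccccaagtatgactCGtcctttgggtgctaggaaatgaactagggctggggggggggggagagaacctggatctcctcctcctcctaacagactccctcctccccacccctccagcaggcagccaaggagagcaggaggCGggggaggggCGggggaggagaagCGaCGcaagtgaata
Zic1: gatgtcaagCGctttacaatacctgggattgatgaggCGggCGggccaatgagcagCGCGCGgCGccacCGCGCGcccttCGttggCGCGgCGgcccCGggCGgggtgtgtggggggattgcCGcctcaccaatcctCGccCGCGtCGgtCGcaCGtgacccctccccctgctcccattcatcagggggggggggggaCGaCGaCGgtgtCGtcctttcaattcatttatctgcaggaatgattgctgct

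The windows were also searched on both strands for CTTTGA, the core of the Tcf/Lef site, and for CAGCAGG, a sequence bound by Zic proteins. The first was found in 16.0% of all windows and in 2 of 12 member windows, those of Zic4 and of the last Lef1 start. The second was found in 10.5% of all windows and in 2 of 12 member windows, the overlapping upstream windows of Lef1. A match of this kind is a description of the sequence only.

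Outside the members, the genes through which Tcf/Lef proteins act were read by the same gene rule. Of 16 cofactors, 1 was called higher and 0 lower, where 1.42% of all genes were called higher and 1.43% lower, and their median log2 fold change was 0.06. The cofactor called, Tle5 (also Aes), encodes a short TLE protein that lacks the repressive parts of its relatives. It rose to 13.13, 12.97, 12.94 and 13.02 in shKdm2b replicates 1 to 4, against 12.77, 12.41, 11.91 and 12.10 in shScrambled replicates 1 to 4 (log2 fold change 0.72, SE 0.17, limma adjusted p = 0.0352). That call was lost without shKdm2b replicate 1, 2 or 4 or shScrambled replicate 2, 3 or 4 (limma adjusted p = 0.0741 to 0.0918). Ctnnbip1, an inhibitor that keeps beta-catenin from Tcf proteins, rose by 0.21 (limma adjusted p = 0.0321, and 0.0578 with the replicate block), short of 1.5-fold. Ctnnb1, which encodes beta-catenin, had a log2 fold change of 0.01 (SE 0.05, limma adjusted p = 0.948).

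Of 12 genes of the machinery that degrades beta-catenin, 0 were called in either direction, with a median log2 fold change of -0.01. Gsk3b, which encodes a kinase that marks beta-catenin for degradation, fell by 0.40 (SE 0.07, limma adjusted p = 0.0160), and Btrc, a subunit of its ubiquitin ligase, rose by 0.25 (SE 0.06, limma adjusted p = 0.0402, and 0.0523 with the replicate block). Both missed 1.5-fold, with the knockdown arrays all on one side of the control arrays.

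Of 21 measured feedback and target genes of Wnt signalling, 1 was called lower and 0 higher, and with the replicate block 2 were lower. Ccnd1, which encodes cyclin D1, had log2 signals of 11.87, 11.94, 12.33 and 11.88 in shKdm2b replicates 1 to 4, against 12.56, 12.83, 12.96 and 12.57 in shScrambled replicates 1 to 4, without overlap. It fell by 0.72 (SE 0.13, limma adjusted p = 0.0157), and lost the call without shKdm2b replicate 2 or 4 or shScrambled replicate 2 (limma adjusted p = 0.0509 to 0.0552). Sp5, a zinc finger gene induced by Wnt signals, fell by 0.33 (limma adjusted p = 0.0488), and Cdx4, a caudal homeobox gene, rose by 0.26 (limma adjusted p = 0.0304), both short of 1.5-fold. The signal of Cdx4 lay below the median of every array, as did those of Zic1 and Zic4. Notum, a secreted inhibitor of Wnt ligands, was called with the block only (log2 fold change -0.69, limma adjusted p = 0.0963 without the block and 0.0457 with it).

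In this list the gene with the lowest fold change, Myc, was lower in 4 of 4 pairs and passed neither fit (log2 fold change -0.88, limma adjusted p = 0.142 without the block and 0.0700 with it). Axin2, the feedback gene most often read as a reporter of beta-catenin with Tcf/Lef, had a log2 fold change of -0.14 (limma adjusted p = 0.479). Over these 21 genes the median log2 fold change was -0.07.

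Of 10 genes of naive pluripotency, several of them repressed by Tcf7l1 in mouse ESCs, 1 was called higher and 0 lower, with a median log2 fold change of 0.21. Tbx3, a T-box gene, rose by 0.82 (SE 0.15, limma adjusted p = 0.0180), a call lost without shKdm2b replicate 2 or 4 or shScrambled replicate 2 or 4 (limma adjusted p = 0.0524 to 0.0608). Klf4 had a log2 fold change of 0.43 (limma adjusted p = 0.0558) with no overlap of the groups.

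Of 10 genes of the formative and primed states, in which Zic2 and Zic5 are also transcribed, 0 were called without the block and 1 lower with it, and their median log2 fold change was -0.35. That gene was Dnmt3b, a de novo DNA methyltransferase gene. It read 11.24, 11.66, 12.06 and 11.71 in shKdm2b replicates 1 to 4, against 11.81, 12.40, 12.92 and 12.81 in shScrambled replicates 1 to 4, lower in 4 of 4 pairs (log2 fold change -0.81, limma adjusted p = 0.0884 without the block and 0.0103 with it). Nodal, a TGF-beta family ligand gene, had a log2 fold change of -0.21 (limma adjusted p = 0.0681). The lists of naive and of formative genes share no member with the Zic and Tcf/Lef genes.

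Of 6 Gli and Glis genes, the nearest relatives of the Zic genes by their zinc fingers, 1 was called lower and 0 higher, with a median log2 fold change of 0.08. Gli3, mainly a repressor of Hedgehog targets, had log2 signals of 9.23, 9.39, 9.48 and 9.34 in shKdm2b replicates 1 to 4, against 10.34, 9.97, 10.29 and 10.16 in shScrambled replicates 1 to 4. It fell by 0.83 (SE 0.09, limma adjusted p = 0.00273) and passed without any 1 array (limma adjusted p = 0.00274 to 0.0138). Gli2, mainly an activator, had a log2 fold change of 0.19 (limma adjusted p = 0.185).

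**Figure D4:**
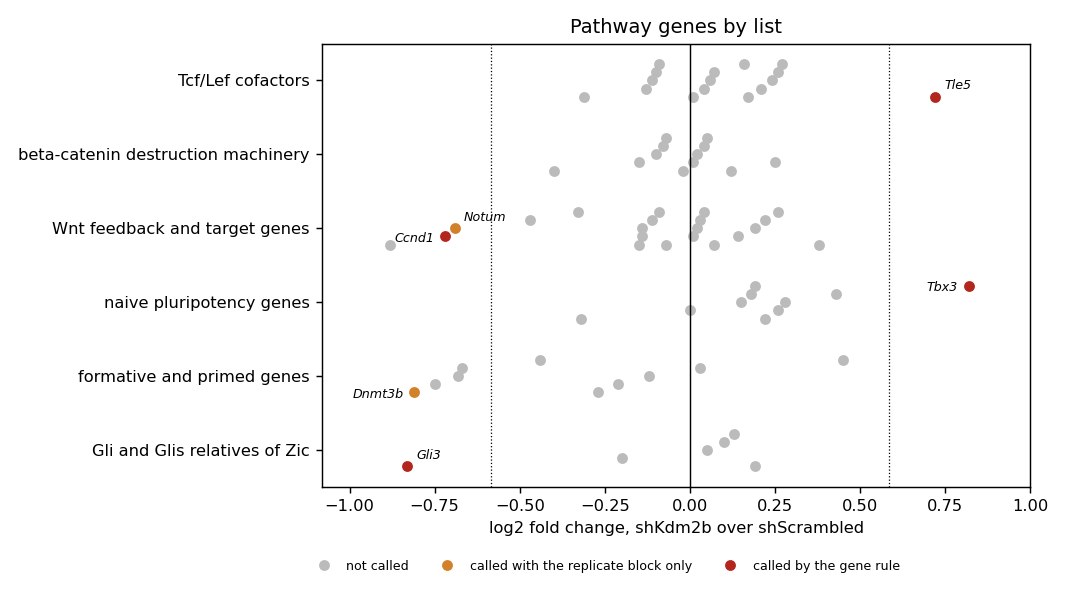
Log2 fold change (shKdm2b over shScrambled) of the genes of 6 lists, 1 point per gene at its most significant probe set, spread vertically for legibility. Red points met the gene rule without the block, orange points with the replicate block only, and dotted lines mark 1.5-fold. Of the genes called in either fit, Tle5 and Tbx3 lie to the right, and Ccnd1, Notum, Dnmt3b and Gli3 to the left.

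Markers of other cell types were read on the same arrays, because Zic and Lef1 transcripts are also found in neural and mesodermal cells. Their part in the changes above was not tested, and in bulk RNA fewer cells of a type cannot be told apart from less RNA per cell. Of 8 measured neural markers, 1 was called lower (Pax6, log2 fold change -1.01) and 0 higher. Their mean log2 signal was 9.32 to 9.43 on shKdm2b arrays and 9.47 to 9.63 on shScrambled arrays, but their median log2 fold change was 0.09. At an unadjusted limma p under 0.05, 3 of them were lower (Pax6, Nes and Map2) and 2 higher (Stmn2 and Tubb3). Of 7 neural crest and roof plate markers, 0 were called (means 8.29 to 8.44 in shKdm2b cells and 8.28 to 8.34 in shScrambled cells), nor were any of 7 mesoderm markers (8.69 to 8.92 in shKdm2b cells and 8.60 to 8.90 in shScrambled cells) or of 8 primitive endoderm markers (8.92 to 9.25 in shKdm2b cells and 8.93 to 9.11 in shScrambled cells). Of 7 trophoblast markers Krt8 was called lower (log2 fold change -1.24, list means 9.31 to 9.80 in shKdm2b cells and 9.68 to 10.23 in shScrambled cells), and of 7 fibroblast markers Thy1 was called higher (log2 fold change 0.72, list means 9.53 to 9.69 in shKdm2b cells and 9.44 to 9.83 in shScrambled cells). With the replicate block the neural marker Nes (log2 fold change -0.78) and the trophoblast marker Krt18 (-0.86) were called lower in addition, and the mesoderm marker Eomes (0.77) was called higher.

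In a comparison at matched passages (28 to 30, blocked by passage) no member passed. Zic2 then had a log2 fold change of -0.58, the first Zic5 probe set of -0.50 and Lef1 of -0.47 (limma adjusted p = 0.308, 0.424 and 0.269). That comparison has 6 arrays, and each of its pairs joins unlike replicate numbers. In it the calls of Tle5, Ccnd1, Tbx3 and Gli3 were also lost (limma adjusted p between 0.0696 for Gli3 and 0.199 for Tle5).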

How the data were processed

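Expression was measured in 4 shKdm2b and 4 shScrambled samples, 1 array each. The authors deposited log2 values that they had made with RMA in oligo 1.18.1; the genome build is not given in the sources used here. Probe sets were named through GEO's platform annotation, updated by gene identifier with the RefSeq table of GRCm38.p6, and 21789 of 35556 probe sets name 1 gene. The number of arrays limits the precision.

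All probe sets entered a linear model (limma 3.58.1, R 4.3.3) without a block, as the paper's methods name none, and p-values were adjusted over all probe sets by Benjamini-Hochberg. Same-numbered arrays were taken to pair the samples: their deviations from the group means correlated at 0.118 to 0.355 over all probe sets, above the limit of 0.1, against -0.231 to 0.0747 between different numbers. Alternatives were the replicate block, leaving out each array, passages 28 to 30, a filter on dim probe sets, quantile normalization, median centring, a trended prior and no fold threshold. Leaving out both arrays of a replicate number under the block and the comparison of the Zic5 probe sets were chosen after seeing the data. So were the ranking of genes by likeness and the order of replicates that was counted over all genes.

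The members, lists and tests were chosen with earlier results of these data known. Named genes are the members, Kdm2b, up to 4 genes per list with an adjusted p under 0.05 (otherwise the 2 with the smallest p, the marker lists being given by their calls) and the 3 genes of highest r with a member. As no member passed without the block, those were taken for Zic2, Zic5 and Lef1. Ctnnb1, Notum, Myc and Axin2 were named after their values were seen. The remaining Zic gene is not reported here.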

Additional observations from a re-analysis of the deposited data

Results flagged for a closer look

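Among the 18 groups of 4 arrays of the 9 member probe sets, 1 array stood apart from the others of its group. For the second Zic4 probe set, shScrambled replicate 2 was highest at 7.47, and its gap to the next array made up 0.861 of the range of the group, above Dixon's 95% critical value for 4 samples. Chance marks about 1 in 20 such groups. The shScrambled arrays of this probe set lay between 7.35 and 7.47, so that the gap is small in size, and the cause was not tested.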

How the results depend on the processing

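Over the 9 member probe sets and the alternatives fixed at the outset, each of 123 log2 fold changes kept its direction, and 117 also kept their side of the threshold. The number of members called lower was 0, but 3 with the replicate block, and 0 to 1 when 1 array was left out (1, Zic2, without shKdm2b replicate 3). With the replicate block and both arrays of a replicate number left out, it was 1 without replicate 1, 2 without replicate 3, and 0 without replicate 2 or 4. No member was called higher in any of these. In the blocked fits the adjusted p of Zic2 then ran from 0.0241 to 0.119, that of the first Zic5 probe set from 0.0486 to 0.126 and that of Lef1 from 0.0495 to 0.0668 (limma), with log2 fold changes of -1.03 to -0.70, -0.81 to -0.59 and -0.85 to -0.61. When 1 array was left out without the block, the log2 fold change of Zic2 ran from -1.15 to -0.58, that of the first Zic5 probe set from -0.91 to -0.50 and that of Lef1 from -0.98 to -0.47. The difference of the first Zic5 probe set minus Zic2 between the groups ran from 0.08 to 0.28 when 1 array was left out. Under quantile normalization or median centring Zic2 stayed between -0.93 and -0.88. Of 180 counts in the pathway lists, 153 stayed within 1.5 times the reported count, 10 were larger and 17 smaller, and the cause was not tested. Many of these counts were 0 as reported and could not become smaller. The count of cofactors called higher stayed in 7 alternatives and was smaller in 7. That of naive genes called higher stayed in 10 and was smaller in 5. For Wnt target genes called lower, 7 stayed, 4 were smaller and 4 larger. For Gli and Glis genes called lower, 14 stayed and 1 was smaller. The replicate block changed no other call among the members, and of the list genes it added Notum, Dnmt3b, Nes and Krt18 as lower and Eomes as higher.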
